A study of Mus musculus with 12 samples.

Results

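The carcinoembryonic antigen-related cell adhesion molecule (Ceacam) genes and Cd177 were examined in the proximal colon of 12 mice, 6 EPR fl/fl and 6 EPR cKO, by RNA-Seq with 1 library per animal. The set of 8 genes, Ceacam1, Ceacam2, Ceacam10, Ceacam16, Ceacam18, Ceacam19, Ceacam20 and Cd177, was chosen by gene name from the 55376 genes of the count table, with the results of the EPR cKO against EPR fl/fl comparison already known. Ceacam10 and Cd177 were taken in because they were much lower in EPR cKO mice, so their difference between the groups is given as a description without a test. The same holds for the difference of the other members, which come from the same comparison.

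EPR is a long noncoding RNA of epithelia, and the count table lists it under the name of its short open reading frame, Smim31. All 12 mice were 12 weeks old and carried both EPR alleles with loxP sites around the promoter and the first exon. EPR fl/fl mice had no Cre and served as controls, with a genotype label of wild type. EPR cKO mice carried in addition the CDX2P-NLS Cre transgene, in which a human CDX2 promoter drives Cre recombinase in epithelial cells of the colon, cecum and the end of the ileum, so that epithelial cells lose EPR and other cells of the tissue do not. RNA came from whole frozen tissue of the proximal colon, so fewer cells of a type and less RNA per cell cannot be told apart. EPR (Smim31) checked the labels. Its level in counts-per-million (CPM, scaled by TMM, the trimmed mean of M values) was 39.4 ± 14.5 for EPR fl/fl and 0.132 ± 0.151 for EPR cKO (SD, n = 6 each), a log2 fold change of −8.09 (SE 0.47, edgeR quasi-likelihood adjusted p = 1.62e-06).

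CEACAM proteins belong to the immunoglobulin superfamily and sit on the cell surface, where they bind each other and bind bacteria. CEACAM1 spans the membrane and carries inhibitory motifs in its tail that recruit the phosphatases encoded by Ptpn6 and Ptpn11. CEACAM20 is found on the microvilli of intestinal epithelial cells together with the receptor phosphatase encoded by Ptprh. CD177 is not a CEACAM: it is a glycolipid-anchored surface protein of the Ly6 and PLAUR family, best known from neutrophils. Mouse Ceacam10 encodes a secreted member of the family with immunoglobulin domains and no membrane anchor, and Ceacam16 is known from the inner ear.

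All 8 genes lie on chromosome 7 (mm10, coordinates as in the count table). Cd177 covers 24743983 to 24760311 on the minus strand and Ceacam10 covers 24777206 to 24784656 on the plus strand. They are head to head, 16.9 kb apart, with 0 annotated genes between them. Ceacam1 (25461707 to 25477603) lies 677 kb beyond Ceacam10, and Ceacam2 (25516042 to 25539857) a further 38.4 kb along. The sequence of 250 bases in front of the start of transcription was read for 7 of the 8 genes from RefSeq (GRCm38.p6), and no entry was used for Ceacam16. The following 3 are shown because Ceacam10 and Cd177 are the members with the large difference between the groups and because Ceacam1 is the gene whose upstream sequence is most like that of Ceacam10. Capitals in Ceacam10 and Ceacam1 mark the bases at which these differ within their alignment, and capitals in Cd177 mark the letters TATAAA.
Ceacam10 (chr7:24776917-24777166, plus strand): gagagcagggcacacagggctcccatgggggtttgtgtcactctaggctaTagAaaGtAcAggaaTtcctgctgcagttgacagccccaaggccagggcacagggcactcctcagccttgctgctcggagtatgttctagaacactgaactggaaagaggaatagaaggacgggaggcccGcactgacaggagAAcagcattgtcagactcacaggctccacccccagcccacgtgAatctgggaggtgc
Ceacam1 (chr7:25477626-25477875, minus strand): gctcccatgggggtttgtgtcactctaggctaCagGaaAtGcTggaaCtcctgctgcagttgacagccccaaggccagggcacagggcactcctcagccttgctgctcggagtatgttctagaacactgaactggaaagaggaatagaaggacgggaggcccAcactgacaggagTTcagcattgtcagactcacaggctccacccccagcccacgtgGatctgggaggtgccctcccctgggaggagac
Cd177 (chr7:24760312-24760561, minus strand): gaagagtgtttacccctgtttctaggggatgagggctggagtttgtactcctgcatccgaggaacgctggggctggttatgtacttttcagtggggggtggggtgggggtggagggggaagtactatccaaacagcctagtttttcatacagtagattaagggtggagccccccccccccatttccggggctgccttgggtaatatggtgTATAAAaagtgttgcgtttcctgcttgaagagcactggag

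The upstream sequences of Ceacam10 and Ceacam1 aligned over 232 columns with 222 identical bases, 10 substitutions and 0 gaps, an identity of 95.7%. The aligned stretch begins 232 bases before the start of Ceacam10 and 250 bases before the start of Ceacam1. Ceacam2 aligned with Ceacam1 over 120 columns (86.7% identity) and with Ceacam10 over 138 columns (84.8%). The other pairs among 28, which include the non-member Ceacam12, aligned over 25 columns or fewer. Cd177 shared no such stretch with Ceacam10, where the alignment held 13 columns. A search for 6 short motifs on both strands found CACGTG, an E-box, once each in Ceacam1 and Ceacam10, and 6.04% of 27025 upstream sequences of the same length held it. TATAAA was in Cd177, Ceacam18 and Ceacam12 (13% of all), TTTATG, which CDX factors can bind, was in Ceacam2 and Ceacam18 (11.1%), and the E-box CAGCTG was in Ceacam20 (12.7%). CAGATG and GGGCGG had no match in these windows.

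Total counts ran from 13093904 to 33211041 a library, and 15952 of 36694 genes with a count were tested (at least 1 CPM in at least 4 libraries). EPR cKO replicate 1 stood apart in a tissue score, although the rule for outlying libraries used below did not flag it. Its epithelium score minus its smooth muscle score, each the mean log2 CPM of a marker list, was −0.55, whereas it lay between 1.44 and 2.92 for the 5 remaining EPR cKO libraries and between 0.39 and 1.10 for EPR fl/fl. The score was 1.17 higher in EPR cKO over all libraries (two-sided exact permutation, p = 0.0584, adjusted over 9 scores 0.162), and 1.64 higher without that library (adjusted p = 0.0065). Values that rest on this library are therefore given with and without it.

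Of the 8 genes, 6 passed the filter, namely Ceacam1, Ceacam2, Ceacam10, Ceacam18, Ceacam20 and Cd177. At an adjusted p under 0.05, 2 of these 6 were lower in EPR cKO and 0 were higher, and over all tested genes 1.57% were lower and 2.46% changed in either direction. At the thresholds of the study (an adjusted p under 0.001 together with a change of more than 2.38-fold) 1 of the 6, Ceacam10, was lower, against 0.169% of all tested genes. Ceacam10 and Cd177 were the 2 members whose 6 EPR cKO libraries all lay below all 6 EPR fl/fl libraries, which 1.47% of tested genes did. Nothing is read from these counts, because the comparison chose the members. The median log2 fold change was 0.01 over the 6 members and 0.02 over all tested genes. The plot of levels by library shows the separation of Ceacam10 and Cd177 beside the overlap of the other 4.

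**Figure D1:**
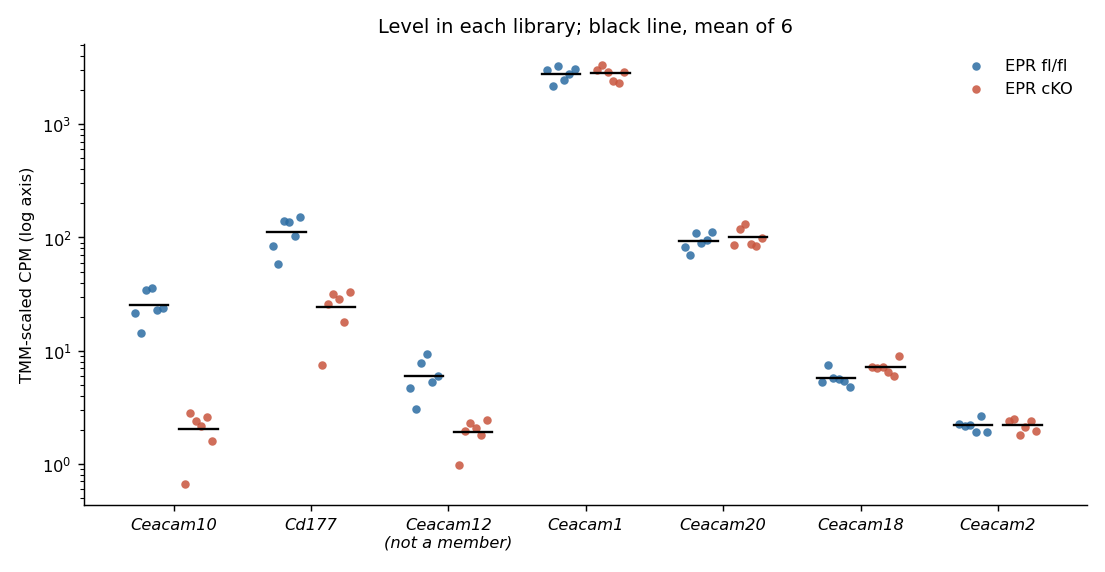
Level of 7 genes in each library as TMM-scaled CPM on a log axis, with EPR fl/fl in blue, EPR cKO in red and a black line at the mean of 6 libraries. The EPR cKO points of Ceacam10, Cd177 and the non-member Ceacam12 lie below all their EPR fl/fl points, and those of Ceacam1, Ceacam20, Ceacam18 and Ceacam2 overlap them.

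Ceacam10 was the member with the largest difference. In EPR fl/fl its level was 14.3 CPM at the lowest, 23.4 at the median and 36.0 at the highest, from 295 to 1109 counts. In EPR cKO it was 0.659, 2.29 and 2.83 CPM, from 12 to 83 counts. The groups did not overlap, and the lowest EPR fl/fl library was 5.04 times the highest EPR cKO library. The mean of 25.5 ± 8.23 CPM in the controls compared with 2.04 ± 0.798 CPM (SD, n = 6 each), which left 8.02% of the control level. The fitted log2 fold change was −3.62 (SE 0.31, 95% interval −4.30 to −2.95), a 12.3-fold lower level and the third lowest value of all tested genes. Without EPR cKO replicate 1, whose Ceacam10 level was the lowest of all, it was −3.46 (SE 0.24). With the epithelium minus smooth muscle score as a covariate it was −3.96 (SE 0.43). Ceacam10 passed the stricter thresholds of the study in every fit except that with the replicate number as a block.

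Cd177 was higher than Ceacam10 at the outset and differed by less. In EPR fl/fl it was 58.1 CPM at the lowest, 120 at the median and 152 at the highest. In EPR cKO the corresponding levels were 7.47, 27.3 and 32.9 CPM, again with EPR cKO replicate 1 at the bottom. The groups did not overlap, with a ratio of 1.77 between the lowest EPR fl/fl and the highest EPR cKO library. The means were 112 ± 36.7 and 24.1 ± 9.74 CPM, with a fitted log2 fold change of −2.22 (SE 0.33, 95% interval −2.93 to −1.51) or 4.65-fold lower. It was −2.05 (SE 0.24) without EPR cKO replicate 1 and −2.77 (SE 0.45) with the score as a covariate. Cd177 did not pass the stricter thresholds of the study over all libraries, and it passed them without EPR cKO replicate 1, with no low-count filter and with DESeq2.

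The difference was larger in Ceacam10 than in Cd177. The log2 ratio of Ceacam10 to Cd177 CPM was −2.13 ± 0.28 for EPR fl/fl (−2.68 to −1.92) and −3.55 ± 0.53 for EPR cKO (−4.37 to −2.80), and the libraries of the groups did not overlap. Muc2, the main secreted mucin of the colon, provides a scale for a gene of goblet cells. It was itself lower in EPR cKO (log2 fold change −2.19, SE 0.27), so an even ratio to Muc2 means that both genes were lower to a similar degree. The log2 ratio of Cd177 to Muc2 was −6.13 ± 0.73 for EPR fl/fl and −6.31 ± 0.87 for EPR cKO, a difference of −0.18 that is smaller than the spread between libraries. Leaving out EPR cKO replicate 1, the ratio was −5.96 ± 0.21 for EPR cKO, and the difference turned to 0.16. The log2 ratio of Ceacam10 to Muc2 was −8.25 ± 0.58 and −9.86 ± 0.95, a difference of −1.61, and the libraries of the groups overlapped. Without that library the difference was −1.27, and that of Ceacam10 to Cd177 was −1.43.

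Ceacam1, the inhibitory receptor of the family, was the most abundant member and did not differ between the groups beyond the spread of the libraries. Its level ran from 2180 to 3276 CPM in EPR fl/fl, with a median of 2899, and from 2324 to 3342 CPM in EPR cKO, with a median of 2891. The libraries overlapped almost entirely. The log2 fold change was 0.01 (SE 0.13), and the 95% interval from −0.26 to 0.28 bounds the difference. Per kb of exon, Ceacam1 stood at 700 ± 104 CPM per kb in EPR fl/fl, above 99.7% of the tested genes.

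Ceacam2, its close paralog, was near the lower limit of the tested genes at 2.19 ± 0.267 CPM for EPR fl/fl and 2.20 ± 0.280 for EPR cKO. The log2 fold change was 0.01 (SE 0.15, 95% interval −0.31 to 0.33). Its counts, from 31 to 77 a library, are uncertain for a further reason. Of the 50-base stretches in Ceacam2 transcripts, 46.7% also occur in Ceacam1 transcripts, and 29.6% of those of Ceacam1 occur in Ceacam2, so that reads could be split between them. Ceacam10 shares 3.00% of its stretches, all of them with Ceacam1, and Cd177 shares 5.51%, mostly with the gene model Gm4763.

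Ceacam20, the microvillus protein, was at 69.9, 92.1 and 112 CPM for EPR fl/fl (lowest, median and highest) and at 84.2, 92.6 and 131 CPM for EPR cKO. The log2 fold change was 0.12 (SE 0.14, 95% interval −0.19 to 0.42). Ceacam18 was at 5.71 ± 0.950 CPM for EPR fl/fl and 7.14 ± 1.03 CPM for EPR cKO, and 1 EPR fl/fl library, replicate 2 at 7.55 CPM, lay inside the EPR cKO range of 6.01 to 9.03. Its log2 fold change was 0.32 (SE 0.14, 95% interval 0.02 to 0.62), the highest of the members, and it was not called. The plot of fitted differences sets these intervals side by side.

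**Figure D2:**
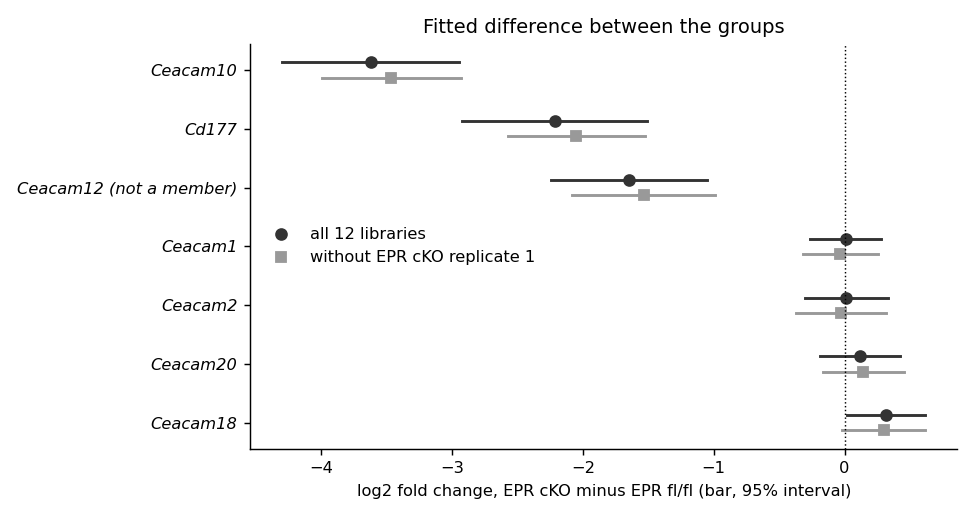
Fitted log2 fold change of EPR cKO minus EPR fl/fl with its 95% interval, for 6 members and Ceacam12, over all 12 libraries (circles) and without EPR cKO replicate 1 (squares). Ceacam10, Cd177 and Ceacam12 lie well below 0 in both fits, and the intervals of Ceacam1, Ceacam2 and Ceacam20 include 0 in both.

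Ceacam16 and Ceacam19 did not pass the filter. Ceacam16 had 19 counts in all, 7 for EPR fl/fl and 12 for EPR cKO, and 5 libraries had none. An antisense gene, Gm19345, covers 23.2% of its exon bases. Ceacam19 had 7 counts, 1 for EPR fl/fl and 6 for EPR cKO, and 7 libraries had none. No difference in either was detectable at this depth.

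In order of level per kb of exon in EPR fl/fl, Ceacam1 (700 CPM per kb) was followed by Cd177 (41.3 ± 13.5), Ceacam20 (32.2 ± 5.62) and Ceacam10 (24.3 ± 7.85). Within a library Cd177 was above Ceacam10 in 6 of 6, by 1.72 ± 0.384 times. It was above Ceacam20 in 5 of 6 (1.26 ± 0.272 times), and Ceacam20 was above Ceacam10 in 5 of 6 (1.41 ± 0.337 times), so the neighbours in this order exchanged places in 1 library each. Ceacam18 (2.90 ± 0.482) and Ceacam2 (0.595 ± 0.0726) came next, with Ceacam16 and Ceacam19 last. In EPR cKO, Ceacam20 (34.9 ± 6.86 CPM per kb) was above Cd177 (8.88 ± 3.59), Ceacam18 (3.63 ± 0.524) and Ceacam10 (1.95 ± 0.761). Of the summed per-kb level of the 7 Ceacam members, Ceacam1 made up 92.1% ± 1.20 for EPR fl/fl and 94.5% ± 0.752 for EPR cKO. Ceacam10 made up 3.20% ± 1.01 and 0.268% ± 0.112. For every 1000 Ceacam1 reads there were 9.13 ± 3.02 Ceacam10 reads for EPR fl/fl and 0.744 ± 0.314 for EPR cKO, a ratio within each library that does not depend on the scaling.

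The rule for the set left out other genes of the family, and these could be tested. The table lists 21 further genes named Ceacam (8) or Psg (13), the latter being the pregnancy-specific glycoproteins of the placenta. Of these, 7 had no count in any library, and 1, Ceacam12, reached 1 CPM in any library. The 20 untested genes had at most 24 counts in all and at most 6 in 1 library. Ceacam12 (18065929 to 18077986 on chromosome 7, plus strand) lies 6.67 Mb from Cd177 on the other side from Ceacam10.

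Ceacam12 was lower in EPR cKO. In EPR fl/fl its level was 3.08, 5.65 and 9.34 CPM (lowest, median and highest), and in EPR cKO it was 0.988, 2.02 and 2.44 CPM. The groups did not overlap, with counts of 64 to 288 for EPR fl/fl and 18 to 58 for EPR cKO. The means were 6.04 ± 2.25 and 1.93 ± 0.516 CPM, and the log2 fold change was −1.65 (SE 0.28, edgeR adjusted p = 0.00688). It was −1.54 (adjusted p = 0.00262) without EPR cKO replicate 1. An antisense gene, Gm44613, covers 7.09% of its exon bases and had 1 count in all libraries together.

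Ceacam12 was also set against Ceacam10 and Cd177 within the groups. Correlations were computed on log2 CPM over the 6 libraries of 1 group, in 37 tests over 20 pairs of members, Muc2, Smim31 and the tissue score, with two-sided exact permutation p-values. Those with Ceacam12 and Smim31 were added after the values had been seen. In EPR fl/fl, Ceacam10 and Ceacam12 had a Pearson r of 0.99 (exact p = 0.00139, adjusted 0.0257) and a Spearman rho of 1.00 (exact p = 0.00278, adjusted 0.0514), and r was 0.96 without the 2 libraries farthest from the median of Ceacam10. In EPR cKO, Cd177 and Ceacam12 had a Pearson r of 0.99 (exact p = 0.00139, adjusted 0.0257) and a rho of 1.00 (exact p = 0.00278, adjusted 0.0514), with r = 0.99 without the 2 farthest libraries. The other 2 tests with Ceacam12 did not pass. Ceacam10 and Ceacam12 in EPR cKO had r = 0.77 and rho = −0.03 (exact p = 0.161 and 1.00, adjusted 0.381 and 1.00), with r = −0.54 without the 2 farthest libraries. Cd177 and Ceacam12 in EPR fl/fl had r = 0.89 and rho = 0.77 (exact p = 0.0181 and 0.103, adjusted 0.154 and 0.423), with r = 0.48 without the 2 farthest. Of the 37 tests, 2 had an adjusted p under 0.05, on Pearson's r alone. With total counts in place of TMM their adjusted p was 0.0514.

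Ceacam10 and Cd177 themselves had r = 0.85 and rho = 0.77 in EPR fl/fl (exact p = 0.0361 and 0.103, adjusted 0.191 and 0.423), and r was 0.58 without the 2 farthest libraries. In EPR cKO, r was 0.77 and rho was −0.03 (exact p = 0.150 and 1.00, adjusted 0.381 and 1.00), so the relation rested on replicate 1, and r was −0.40 without the 2 farthest libraries. Among EPR fl/fl mice, the EPR level itself had r = −0.36 with Ceacam10 and r = −0.37 with Cd177 (exact p = 0.454 and 0.476, adjusted 0.630 for both), with rho of −0.43 and −0.54 (exact p = 0.419 and 0.297, adjusted 0.776 and 0.687). Muc2 had r = 0.47 with Ceacam10 in that group (exact p = 0.342, adjusted 0.550) and rho = 0.49 (exact p = 0.356, adjusted 0.692). Among EPR cKO mice, Muc2 and Ceacam10 had r = −0.30 (exact p = 0.475, adjusted 0.630) and rho = 0.09. For Cd177 and Muc2 among the controls, r was 0.19 (exact p = 0.717, adjusted 0.855) and rho was 0.14. Among EPR cKO mice, Cd177 and Muc2 had r = 0.05 (exact p = 0.915, adjusted 0.956) and rho = −0.26.

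**Figure D3:**
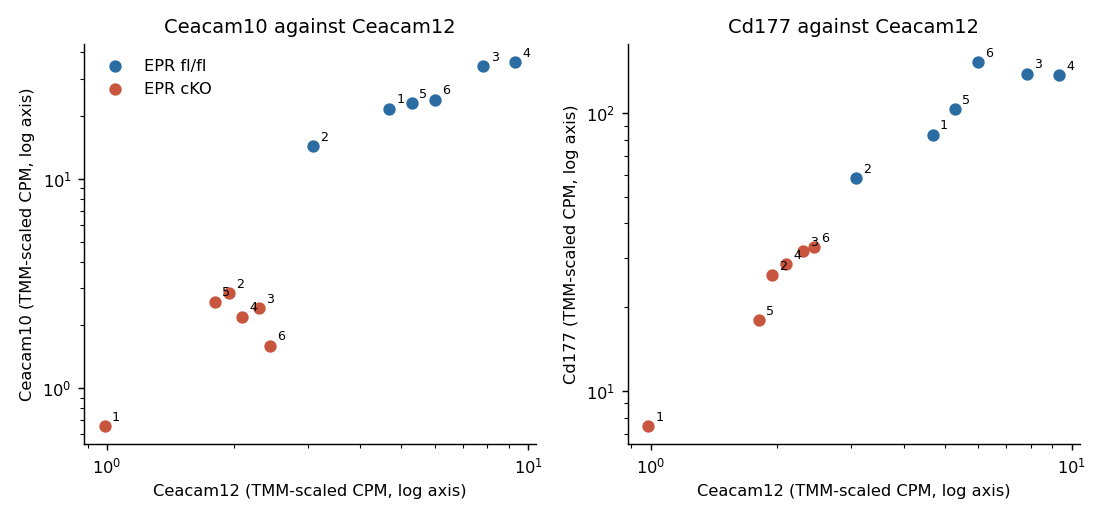
Ceacam10 (left) and Cd177 (right) against Ceacam12, as TMM-scaled CPM on log axes, with 1 point per library, the replicate number beside it, EPR fl/fl in blue and EPR cKO in red. The blue points lie near a line for Ceacam10 (r = 0.99) and the red points for Cd177 (r = 0.99), and the red points of Ceacam10 rest on replicate 1 (r = 0.77, rho = −0.03).

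Over all 12 libraries, with each group centred on its own mean, the genes most like each member were found by Pearson's r as a description. For Ceacam10 these were Nudt22 (r = 0.91), Pipox (0.91), Osbpl10 (0.90), Idnk (0.90) and Acvr1b (0.88), and Ceacam12 ranked 44 with r = 0.83 while Cd177 ranked 95 with r = 0.80. For Cd177 these were Sox21 (r = 0.95), Lpo (0.93), Atp13a1 (0.93), Krt7 (0.92) and Dpep1 (0.92), and Ceacam12 ranked 11 with r = 0.90. Among the 10 genes most like Ceacam10 or Cd177 by this measure, Pipox, a peroxisomal oxidase, was lower in EPR cKO (2.39 against 0.935 CPM, log2 fold change −1.34, adjusted p = 0.0470), and the other 9 did not pass the test. The EPR cKO mean of Pipox lay below the 1 CPM of the filter, and 2.46% of all tested genes were called. Boc (0.92) was most like Ceacam20, Pomgnt2 (0.90) most like Ceacam1, Smim19 (0.85) most like Ceacam2 and Trim24 (0.82) most like Ceacam18. Ceacam20 and Ceacam1 had r = 0.71 with each other. The values compared come from the same 12 libraries, and so share their depth and tissue makeup.

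The genes around Cd177 and Ceacam10 were not used to choose the set. Within 500 kb of either gene 28 other genes were tested. The edgeR test called 0 of them at an adjusted p under 0.05, against 2.46% of all tested genes. DESeq2 called 1 of them, and over all genes it called 473 lower and 440 higher. In edgeR, 5 of the 28 had an unadjusted p under 0.05, and the share of all genes with such a p was not computed. The log2 fold changes of the 28 ran from −0.38 to 0.48 with a median of 0.07. On the side of Cd177 the nearest were Phldb3 (−0.23, SE 0.14), Ethe1, a mitochondrial sulfur dioxygenase (0.48, SE 0.13, adjusted p = 0.0785), and Xrcc1, a DNA repair factor (0.14, SE 0.10). On the side of Ceacam10 they were Gm9844 (0.19, SE 0.35), the ribosomal protein gene Rps19 (0.18, SE 0.11) and Cd79a of the B cell receptor (−0.16, SE 0.47).

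The neighbourhood count depended on EPR cKO replicate 1. Without it 5 of the 28 genes were called, Ethe1 (0.53), Rps19 (0.24), Dedd2 (0.31) and Irgq (0.22) higher and Grik5 lower (−0.70). Over all genes tested without that library 21.8% were called, against 17.9% of the 28. The plot of the neighbourhood shows both genes below the values of all the others.

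**Figure D4:**
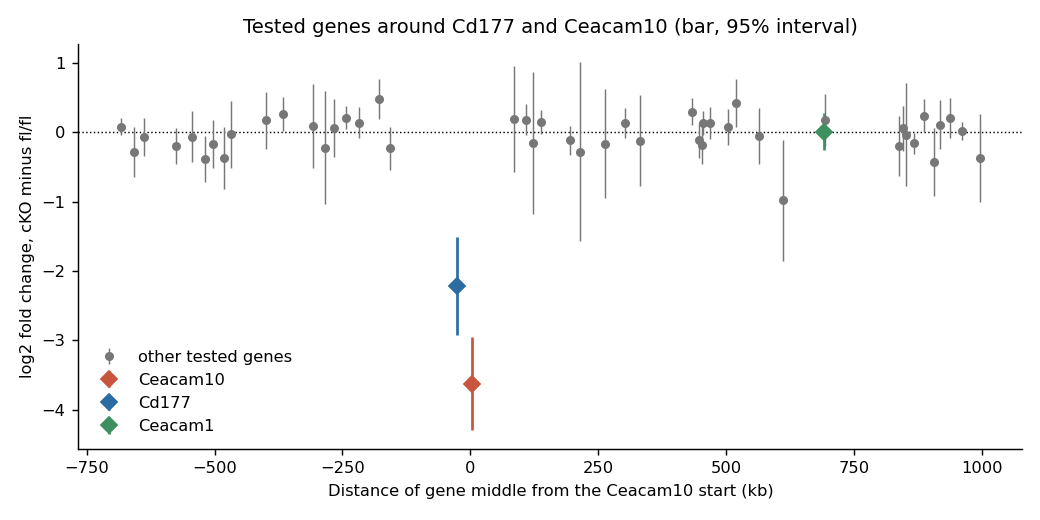
Log2 fold change of EPR cKO minus EPR fl/fl, with its 95% interval, for tested genes within 1000 kb of Cd177 or Ceacam10, against the distance of the gene's middle from the start of Ceacam10 in kb. Cd177 (−2.22) and Ceacam10 (−3.62) lie below all other genes shown, and Ceacam1 lies at 0.01.

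Because CD177 is a neutrophil protein, neutrophil markers were examined beside it. Of 22 markers, 18 did not pass the filter on low values and 2 had no count (Ctsg and Stfa2l1). Mpo was at 0 in all EPR fl/fl libraries and at 0 to 0.029 CPM per kb in EPR cKO. Elane was at most 0.149, S100a8 at most 0.087 and S100a9 at most 0.685 CPM per kb in any library. Ly6g was at 0.290 ± 0.289 CPM per kb for EPR fl/fl and 0.750 ± 0.890 for EPR cKO. Retnlg was at 0.445 and 0.515, and Il1r2 at 0.204 and 0.271, and the groups overlapped in all of these. Apart from Mpo, the other untested markers with a count had lower means in EPR cKO. Cd177 stood at 41.3 ± 13.5 CPM per kb for EPR fl/fl and 8.88 ± 3.59 for EPR cKO. The summed level of all 22 markers was 4.79 to 13.98 CPM per kb for EPR fl/fl and 5.15 to 9.87 for EPR cKO, and Cd177 was 3.23 to 10.7 times that sum in the EPR fl/fl libraries and 0.502 to 2.22 times in the EPR cKO libraries. The 4 markers tested were Itgb2 (log2 fold change −0.45, SE 0.25), Mmp9 (−1.04, SE 0.39), Itgam (−0.32, SE 0.22) and Csf3r (−0.34, SE 0.37). They are expressed by other leukocytes too, and 0 were called, against 2.46% of all tested genes. Their median was −0.39. Without EPR cKO replicate 1, Mmp9 was called (−1.24, adjusted p = 0.0383), in a fit that called 21.8% of all genes. The neutrophil score, a mean log2 CPM over these 4 tested markers alone, gave a difference of −0.46 (EPR cKO minus EPR fl/fl, two-sided exact permutation, adjusted p = 0.162). Without EPR fl/fl replicate 3, which had the lowest score, the difference was −0.65 (exact permutation, adjusted p = 0.0195) and the groups did not overlap. The part of these markers in the difference of Cd177 was not tested. The plot of Cd177 and the markers gives their ranges.

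**Figure D5:**
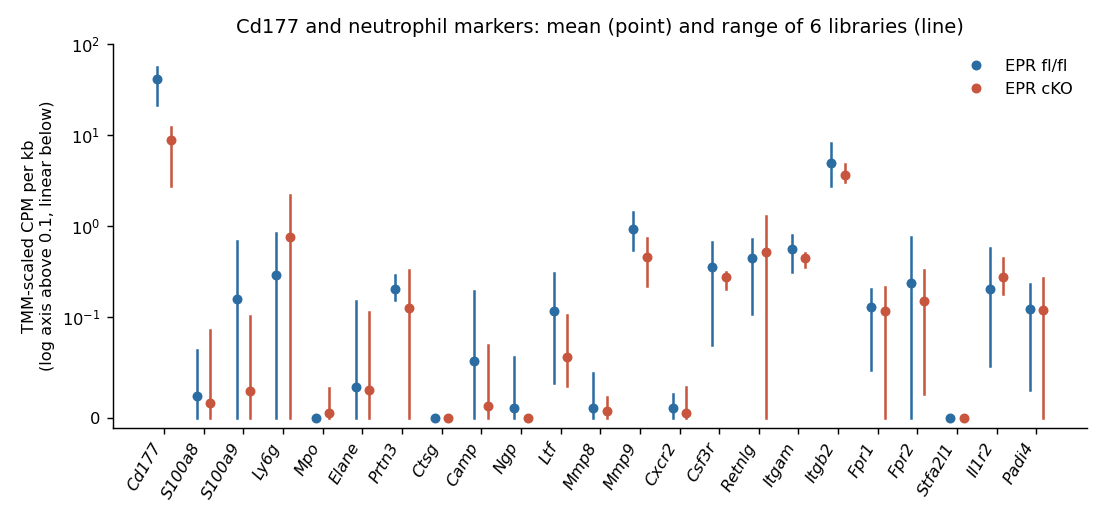
Mean (point) and range over 6 libraries (line) of Cd177 and 22 neutrophil markers, as TMM-scaled CPM per kb of exon, on an axis that is logarithmic above 0.1 and linear below, with EPR fl/fl in blue and EPR cKO in red. Cd177 lies above every marker in EPR fl/fl, and most markers have means below 1 CPM per kb in both groups.

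Of 14 other Ly6 and PLAUR family genes tested, 0 were called at an adjusted p under 0.05, against 2.46% of all tested genes. Their log2 fold changes ran from −0.81 to 1.28 with a median of −0.24. The most abundant was Lypd8, a colon epithelial protein that keeps flagellated bacteria away from the surface, at 4287 ± 1387 CPM for EPR fl/fl and 3897 ± 913 for EPR cKO (−0.14, SE 0.21). Ly6e (−0.57, SE 0.37), Ly6a (−0.35, SE 0.62) and Lynx1 (−0.32, SE 0.22) came with intervals that include 0. Ly6m was at 125 ± 82.6 and 304 ± 58.3 CPM (1.28, SE 0.35, adjusted p = 0.079). Without EPR cKO replicate 1, 5 of the 14 were called, Gpihbp1 (−1.35), Cd59a (−1.18) and Lynx1 (−0.55) lower and Ly6m (1.28, adjusted p = 0.0274) and Ly6d (1.00) higher. That fit called 21.8% of all genes.

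Partners of CEACAM proteins, 18 genes for phosphatases, kinases, adaptors and co-receptors, were all tested, with a median of 0.05. Of these 0 were called, against 2.46% of all tested genes. Abundant ones among them were Flna (−0.39, SE 0.41), an actin crosslinker, Ctnnb1 (0.26, SE 0.08), Ptprj (−0.14, SE 0.10) and Insr (−0.26, SE 0.13). Ptpn6 (0.09, SE 0.13) and Ptpn11 (0.00, SE 0.07), the phosphatases of the CEACAM1 tail, and Ptprh (0.28, SE 0.08, adjusted p = 0.092), the partner of CEACAM20, were picked for mention after their values had been seen. Without EPR cKO replicate 1, 4 of the 18 were called, Flna (−1.05) and Egfr (−0.43) lower and Ctnnb1 (0.28) and Syk (0.36) higher. Over all genes 21.8% were called in that fit.

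Brush border genes, the surroundings of CEACAM20, had 1 of 14 called higher, Espn, an actin bundler of microvilli (46.9 ± 5.40 against 69.8 ± 5.89 CPM, log2 fold change 0.57, SE 0.09, adjusted p = 0.00343), with 0 called lower and a median of 0.26. Among 23 tested genes for other adhesion proteins, most of them of the immunoglobulin type, L1cam was higher (112 ± 9.10 against 143 ± 10.1 CPM, 0.35, SE 0.07, adjusted p = 0.0210) and Nectin4 was lower (2.29 ± 0.578 against 1.15 ± 0.268 CPM, −0.98, SE 0.22, adjusted p = 0.0340). The median of that list was −0.35. Without EPR cKO replicate 1, 11 of the 23 were called, 8 lower and 3 higher, and 3 of the brush border genes were called higher. Over all genes, that fit called 21.8%, and the fit with all libraries called 2.46%. Espn was called in all 8 alternatives over all libraries and in all 12 fits that left out 1 library. The adhesion list held 0 calls in 6 of these 12 fits (without EPR fl/fl replicate 4 or 5, or EPR cKO replicate 2, 3, 4 or 6) and 1 without EPR fl/fl replicate 3. It held 0 with the tissue score as a covariate, and 1 each with total counts, with no low-count filter and with the replicate number as a block.

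Goblet cell genes were examined beside Ceacam10 and Cd177. Of 20 tested, 10 were lower and 0 higher, against 1.57% lower over all tested genes, with a median of −0.80: Muc2 (−2.19), Klk1 (−2.13), Clca1 (−1.36), Atoh1 (−1.12), Sytl2 (−0.96), Creb3l4 (−0.90), Bcas1 (−0.87), Zg16 (−0.82), Spdef (−0.80) and Tff3 (−0.53). Their mean log2 CPM was 7.98 ± 0.22 for EPR fl/fl and 7.12 ± 0.19 for EPR cKO, a difference of −0.86 in which the groups did not overlap (two-sided exact permutation p = 0.00216, the smallest this design can give, adjusted 0.0195). In the fit without EPR cKO replicate 1, 16 of the 20 were lower and 1 was higher, whereas 5 were called without EPR cKO replicate 3 and 6 without EPR cKO replicate 6. Over all genes 21.8% were called in the fit without EPR cKO replicate 1. The part of the goblet cell genes in the difference of Ceacam10 and Cd177 was not tested.

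Markers of the other cell types of the tissue had 0 genes called with all libraries, in a fit that called 2.46% of all tested genes. They were 13 epithelial genes (median 0.29), 10 of smooth muscle (−0.48), 11 of macrophages (−0.36), 11 of T cells (−0.17), 4 of B cells (−0.02) and 9 of endothelium (−0.38). The summed level of the smooth muscle markers was 3436 to 5853 CPM for EPR fl/fl and 1234 to 10180 CPM for EPR cKO, where replicate 1 was the highest. Without that library all 10 smooth muscle markers were lower with a median of −1.28, 5 of 13 epithelial markers were higher, 4 of 9 endothelial markers, 2 of 11 macrophage markers and 1 of 11 T cell markers were lower, and 0 of 4 B cell markers were called. The share called over all genes in that fit was 21.8%. All 13 epithelial markers were among the tested genes. This shows that the tissue held epithelium, and it cannot check the part of the colon.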

How the data were processed

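Per the file headers and the study's methods, the authors deposited raw read counts for each gene without normalization, in 1 column for each of 12 animals (0 columns without a sample). The authors depleted ribosomal RNA, made stranded libraries, trimmed and aligned the paired reads to mm10 with STAR 2.5.3a and counted them with featureCounts on an Ensembl annotation. The processing notes also name R 3.5.1. The strand setting and the treatment of multiply aligned reads are not given in the sources used here, so counts of paralogs and antisense genes are uncertain.

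Groups came from the sample titles. No library was left out of the main comparison, and p-values measure the spread between these animals. Genes with at least 1 CPM in at least 4 libraries were tested in R 4.3.3 with the quasi-likelihood F test of edgeR 4.0.16 after TMM scaling and without covariates. P-values were adjusted by the Benjamini-Hochberg method over all 15952 tested genes. Log2 CPM used a prior count of 2. The test was run first on simulated counts. Total counts of 13093904 to 33211041 limit what can be seen of the rarest members, and the 30 pairs within groups all differed by more than sampling noise (smallest chi-square per gene 23.5).

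The members, lists, windows and tests were chosen with earlier results of these data known. Genes named were the members, Smim31, other Ceacam or Psg genes reaching 1 CPM, the 3 nearest tested genes on each side of the pair, called genes within 500 kb, called genes of each list or up to 5 by level where none was called, and up to 5 genes most like each member. Any other was picked after its values were seen. Alternatives were other size factors, filters and tests (DESeq2 1.42.0, limma-voom with limma 3.58.1), the replicate number as a block, a tissue covariate and each library left out.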

Additional observations from a re-analysis of the deposited data

Results flagged for a closer look

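In sets of 6 libraries, 1 library stood far from the others in 3 of the 34 sets examined, and chance alone gives about 1 in 20, or 1.7 sets. Ceacam18 was at 7.55 CPM in EPR fl/fl replicate 2, against 4.83 to 5.69 in the other EPR fl/fl libraries. EPR (Smim31) was at 0.423 CPM in EPR cKO replicate 2, against 0 to 0.134 in the others of that group. The neutrophil score, over the 4 tested markers, was 0.772 in EPR fl/fl replicate 3, against 1.72 to 2.24 in the others. No explanation was tested for any of them.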

How the results depend on the processing

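Over 8 alternatives and 12 fits that left out 1 library, the log2 fold change ran from −3.96 to −3.46 for Ceacam10 and from −2.77 to −2.05 for Cd177, given as a description because this comparison chose them. Ceacam12, which the rule for the set left out, was called lower in each of these fits (−1.95 to −1.47). The counts over all genes were 251 lower and 141 higher at an adjusted p under 0.05, 27 lower and 0 higher at the thresholds of the study, 0 of the neighbours of Cd177 and Ceacam10, and 11 lower and 2 higher of 147 tested genes on the lists. With the DESeq2 Wald test these were 473 and 440, 69 and 8, 1, and 17 and 10. The number called higher was 39 with total counts, 54 with no low-count filter, 67 with the replicate block and 82 with the tissue covariate. Of the list genes, 1 was called higher with total counts and 1 with the tissue covariate, and limma-voom called 5. With the replicate number as a block, 4 genes were lower at the thresholds of the study, the log2 fold change was −3.64 for Ceacam10 and −2.28 for Cd177, and 7 list genes were lower. The deviations of same-numbered libraries of the groups had correlations from −0.24 to 0.34 (median 0.02). Those of other numbers ran from −0.33 to 0.34 (median −0.02). Such correlations cannot show whether same-numbered animals were paired, and no label used here gives a pairing. Windows of 250 kb and 1000 kb also held 0 called neighbours.

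With 1 library left out, 145 to 2273 genes were lower and 28 to 1178 higher, 19 to 48 lower and 0 to 3 higher at the thresholds of the study, 0 to 5 neighbours were called, and 5 to 47 list genes were lower and 1 to 16 higher. The highest of each came without EPR cKO replicate 1. The tissue score difference ran from 0.94 to 1.64 and passed an adjusted p of 0.05 in 1 of these fits, without that library. The cause was not tested. The B cell score difference, −0.05 over all libraries, ran from −0.22 to 0.18 and was above 0 without EPR fl/fl replicate 3 (0.06) and without EPR cKO replicate 1. With total counts the r of Cd177 and Ceacam1 in EPR cKO went from −0.09 to 0.17, and that of Muc2 and Smim31 in EPR fl/fl from 0.026 to −0.088. The depth leaves Ceacam16 and Ceacam19 too low for any comparison.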

Other observations

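Among the adhesion genes, Vsig1 did not pass the filter on low values, and its level was 0.184 ± 0.117 CPM for EPR fl/fl (0.0316 to 0.324) and 0.847 ± 0.340 CPM for EPR cKO (0.401 to 1.20), so that the libraries of the groups did not overlap. It was named after its values were seen and was not tested. Guca2a, a hormone gene of the surface epithelium, was 1 of the 20 genes of the goblet cell list and the only one with a positive log2 fold change, at 827 ± 168 CPM for EPR fl/fl and 1137 ± 95.3 CPM for EPR cKO (0.46, SE 0.12, edgeR adjusted p = 0.071), and it was called higher without EPR cKO replicate 1 (0.46, adjusted p = 0.0220).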
